A study of Mus musculus with 4 samples.

Results

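The keratins described here are 10 genes of the layers of footpad epidermis, 10 of the 19938 genes named on the array. They are Krt5, Krt14 and Krt15 of the basal layer and Krt1, Krt10, Krt2, Krt9, Krt77, Krt78 and Krt80 of the layers above it. The list was set by gene symbol, and a probe set counted when its platform annotation held that symbol alone. Each of the 10 genes had 1 such probe set. The arrays came from 2 transgenic mouse lines, noggin and BMP4, each overexpressing its protein from the K14 promoter, the promoter of the basal keratin Krt14. Noggin is a secreted protein that binds BMPs and keeps them from their receptors, and BMP4 is one of the ligands it binds. Epidermis was taken by laser capture from sections of hindpaw skin without hair, as 8 to 10 strips from each of 6 animals per line. RNA from 3 animals was pooled for each array, which gave 2 noggin arrays and 2 BMP4 arrays. The sources used here do not give the strain, age or sex of the animals. Skin without a transgene was not analysed, so each difference is noggin minus BMP4.

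Keratins are the intermediate filament proteins of epithelia. A filament is built from pairs of an acidic type I and a basic type II chain, so each epithelial layer makes keratins of both types. Basal keratinocytes make Krt5 with Krt14, and cells that leave the basal layer switch to Krt1 with Krt10. Thick sole skin adds Krt9, known in humans as the keratin whose mutations cause epidermolytic palmoplantar keratoderma. Among the 10 genes Krt14, Krt15, Krt10 and Krt9 encode type I chains and the other 6 encode type II chains. In the GRCm38.p6 gene table the type I members lie on chromosome 11 and the type II members on chromosome 15. Krt9 and Krt14 are neighbours there, as are Krt2 and Krt1, and Krt1 and Krt77. Members of both families are close copies, and whether a probe of one gene also binds another was not tested.

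The values are log2 probe set intensities, on which 1 unit is a 2-fold change. Median intensity was 6.04 to 6.06 on the 4 arrays. Over the 19938 genes, which are not independent replicates, the BMP4 replicate 1 array correlated with the other arrays at r between 0.985 and 0.989, and the other 3 arrays correlated among themselves at 0.992 to 0.993. Differences of the 10 keratins and median differences of the gene lists are therefore also given without BMP4 replicate 1. Nog and Bmp4, the genes of the transgenes, differed by -0.13 and -0.31 (limma adjusted p = 0.946 and 0.874). The sources used here do not say which stretch of the transcripts the transgenes contain, so these values do not check the labels. The labelled tissue was checked against its keratins: Krt5, Krt14, Krt1, Krt10, Krt2 and Krt9 all lay above 12 on every array, and Krt9 marks sole skin.

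Between footpad epidermis of the noggin and BMP4 lines the 10 keratins differed by -0.39, in Krt80, to 0.05, in Krt10, and none passed the test. The noggin mean was higher for 4 of the 10 and lower for 6, with a median difference of -0.04, which was also -0.04 without BMP4 replicate 1. Across all 19938 genes the noggin mean was higher in 47.8% and lower in 52.2%, with a median difference of -0.0064. In limma 0 of 35556 probe sets, 0%, had an adjusted p below 0.05, and 1994, or 5.61%, had an unadjusted p below 0.05. Of the 10 keratins only Krt80 lay at an unadjusted p below 0.05, against 4.28% of all genes. An exact permutation test with 2 arrays against 2 cannot give a two-sided p below 0.333. The noggin and BMP4 arrays did not overlap for 3 of the 10, Krt14, Krt80 and Krt10, where 33.6% of all genes did not overlap. The largest spread lay within the groups, in Krt77. In bulk tissue a lower signal from fewer cells of a type cannot be told apart from less RNA per cell.

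**Figure D1:**
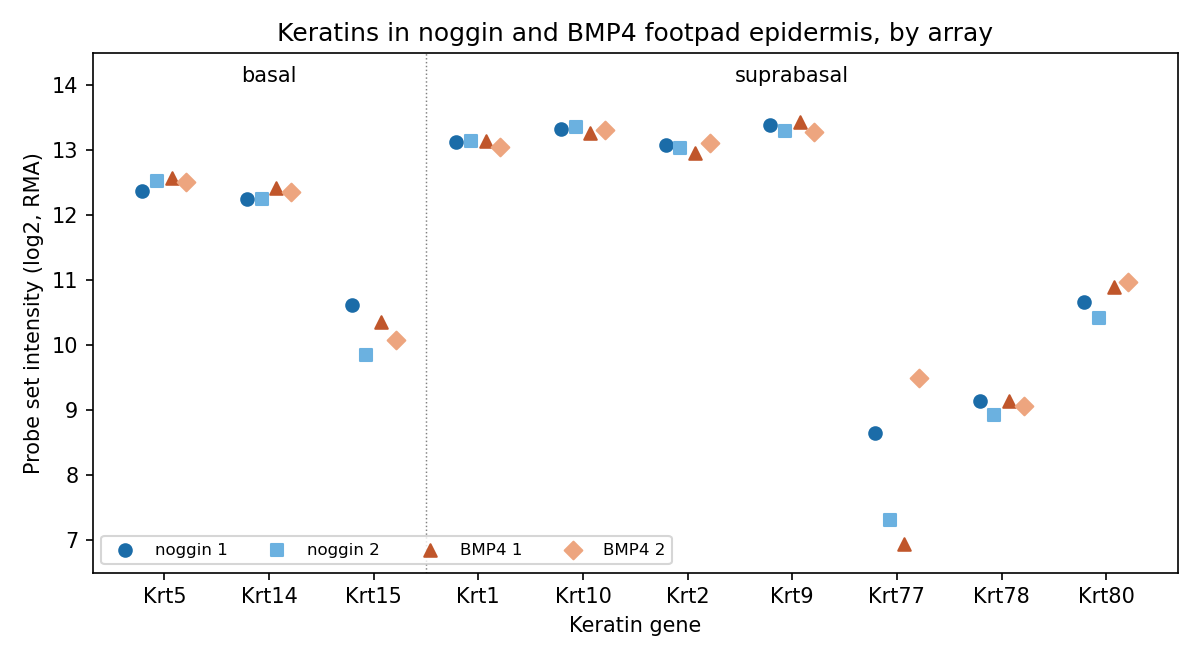
Log2 probe set intensity of the 10 keratins (vertical axis) on each of the 4 arrays, with the noggin arrays left of the BMP4 arrays for each gene. The points of most genes nearly coincide, while Krt77 spans 6.94 to 9.50 and the high arrays include 1 of each line. Intensities of different genes come from different probes and are not comparable in level.

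Among the basal keratins, Krt14 was the gene whose noggin and BMP4 arrays did not overlap. Krt14, the type I chain of basal filaments and the gene whose promoter drives both transgenes, had 12.25 and 12.25 in the noggin arrays, against 12.42 and 12.36 in the BMP4 arrays. Both noggin arrays were lower, and the 2 nearly coincided. The means were 12.25 ± 0.00014 in noggin and 12.39 ± 0.042 in BMP4 (SD, n = 2 each), and their difference was -0.14 (95% interval -0.38 to 0.10, limma adjusted p = 0.940). The difference stayed below 0 without any single array, at -0.17 to -0.11, and was -0.11 without BMP4 replicate 1. That order, with the noggin values below all BMP4 values, was seen in 17.9% of all genes, so the order alone does not set Krt14 apart. In fold terms Krt14 was 1.10-fold higher in the BMP4 line, and the interval reached 1.30-fold.

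Krt5, the type II partner of Krt14, had 12.37 and 12.52 in the noggin arrays, against 12.58 and 12.52 in the BMP4 arrays. The replicate 2 arrays of both lines were level, and only noggin replicate 1 was clearly lower, so the groups overlapped. The difference was -0.10 (95% interval -0.38 to 0.18, limma adjusted p = 0.965), and it was -0.07 without BMP4 replicate 1 and -0.02 without noggin replicate 1. The log2 ratio of Krt5 to Krt14 moved by 0.04 between the lines, less than its SD of 0.075 between arrays of a line. Krt15, a type I keratin of basal cells and of the hair follicle bulge, varied more from pool to pool than its basal neighbours. It had 10.61 and 9.86 in the noggin arrays, against 10.36 and 10.08 in the BMP4 arrays. The noggin arrays held both the highest and the lowest value and enclosed the BMP4 arrays. The range of 0.76 log2 units, or 1.69-fold, exceeded that of 95.5% of all genes. The difference of means was 0.01 (95% interval -0.80 to 0.83), and its sign depended on the array left out, from -0.37 without noggin replicate 1 to 0.39 without noggin replicate 2, and was 0.16 without BMP4 replicate 1.

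The main suprabasal keratins Krt1 and Krt10 were the steadiest of the 10. Krt10, the type I chain of spinous cells, had 13.33 and 13.36 in the noggin arrays, against 13.27 and 13.32 in the BMP4 arrays. Both noggin arrays lay higher, as they did in 15.7% of all genes, by a difference of 0.05 (95% interval -0.19 to 0.29, limma adjusted p = 0.988), which was 0.03 without BMP4 replicate 1. Krt10 was thus 1.03-fold higher in noggin, and the interval allowed at most 1.22-fold. Krt1, the type II partner of Krt10, had 13.14 and 13.14 in the noggin arrays, against 13.15 and 13.06 in the BMP4 arrays. The noggin arrays lay inside the BMP4 range, and the difference was 0.04 (95% interval -0.21 to 0.28), or 0.08 without BMP4 replicate 1. Over the 4 arrays Krt10 ranged over 0.084 and Krt1 over 0.093 log2 units, and only 5.37% and 7.08% of all genes had a smaller range.

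Krt2 and Krt9, the additional keratins of sole skin, also lay close together on the 4 arrays. Krt2, a type II chain of upper spinous and granular cells, had 13.09 and 13.04 in the noggin arrays, against 12.96 and 13.12 in the BMP4 arrays. Its groups overlapped, and the difference was 0.03 (95% interval -0.25 to 0.31), turning to -0.05 without BMP4 replicate 1. Krt9 had 13.39 and 13.29 in the noggin arrays, against 13.44 and 13.28 in the BMP4 arrays. In each line replicate 1 was the higher array, and the difference was -0.02 (95% interval -0.32 to 0.28, limma adjusted p = 0.999). Without BMP4 replicate 1 it was 0.06. The interval of Krt9 allowed at most 1.21-fold higher in noggin and 1.24-fold higher in BMP4. On all 4 arrays Krt1, Krt10, Krt2 and Krt9 lay 0.46 to 0.96 log2 units below the brightest probe set of the array. Whether signals that bright were still proportional to RNA was not tested.

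Ratios between keratins within an array remove a shift that both genes share. The log2 ratio of Krt14 to Krt10 differed by -0.19, noggin minus BMP4, where the SD between arrays of a line was 0.054, and the groups did not overlap. The ratio of Krt5 to Krt1 differed by -0.14, with an SD of 0.076, and again the groups did not overlap. Within the suprabasal pairs, the Krt1 to Krt10 ratio moved by -0.01 and the Krt2 to Krt10 ratio by -0.02, each less than its SD of 0.070 and 0.067. Of all 21 ratios of a basal to a suprabasal member, 6 were lower in both noggin arrays, 2 were higher in both and 13 overlapped. The 6 lower ones set Krt14 against Krt1, Krt10, Krt2 and Krt9 and Krt5 against Krt1 and Krt10, the 2 higher ones set Krt14 and Krt5 against Krt80, and all 7 ratios of Krt15 overlapped. Without BMP4 replicate 1 the Krt14 to Krt10 difference was -0.14 and that of Krt5 to Krt1 was -0.15. Among single genes, 33.6% of all genes did not overlap, and the share among ratios of other genes was not counted. The ratios here share genes and arrays and carry no test.

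**Figure D2:**
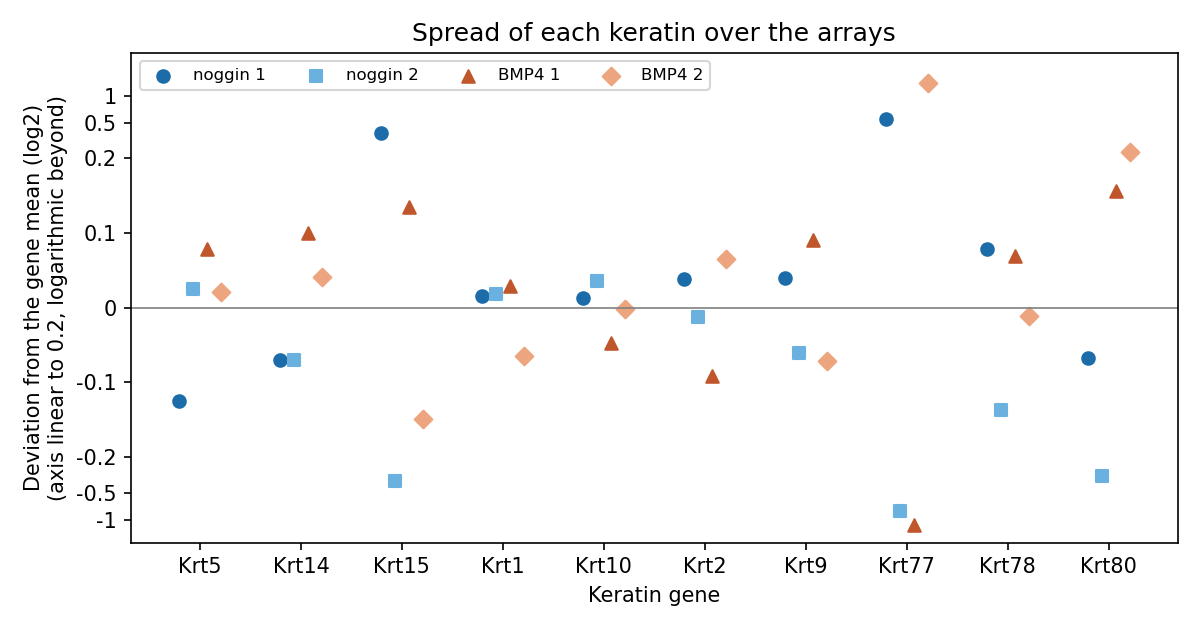
Deviation of each keratin from its own mean over the 4 arrays (log2, vertical axis linear to 0.2 and logarithmic beyond), with the noggin arrays left of the BMP4 arrays. Krt10, Krt1, Krt2 and Krt9 stay within 0.1 of their means, Krt15 and Krt77 spread farthest, and noggin 1 and BMP4 2 are the high arrays for Krt77.

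Krt80 had the largest difference relative to its spread between arrays among the suprabasal members. Krt80, a type II keratin described in human differentiating epithelia, had 10.67 and 10.42 in the noggin arrays, against 10.90 and 10.97 in the BMP4 arrays. Both noggin arrays were lower than both BMP4 arrays. The means were 10.54 ± 0.18 in noggin and 10.94 ± 0.055 in BMP4 (SD, n = 2 each), and Krt80 was 1.31-fold higher in the BMP4 line. The difference of -0.39 had a 95% interval from -0.74 to -0.04 and an unadjusted p of 0.0352, which after adjustment over all probe sets was 0.870 (limma). The difference was -0.43 without BMP4 replicate 1, and with any single array left out it lay between -0.52 and -0.26. In absolute size it exceeded the differences of 95.2% of all genes. Relative to the median difference of the 10 keratins Krt80 was at -0.35, and at -0.41 to -0.25 with 1 array left out.

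Krt78, a type II keratin of suprabasal cells, had 9.15 and 8.93 in the noggin arrays, against 9.14 and 9.06 in the BMP4 arrays. The noggin arrays enclosed the BMP4 arrays, and the difference was -0.06 (95% interval -0.38 to 0.26, limma adjusted p = 0.990). It was -0.02 without BMP4 replicate 1, and leaving out noggin replicate 2, the lowest array, turned it to 0.05.

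**Figure D3:**
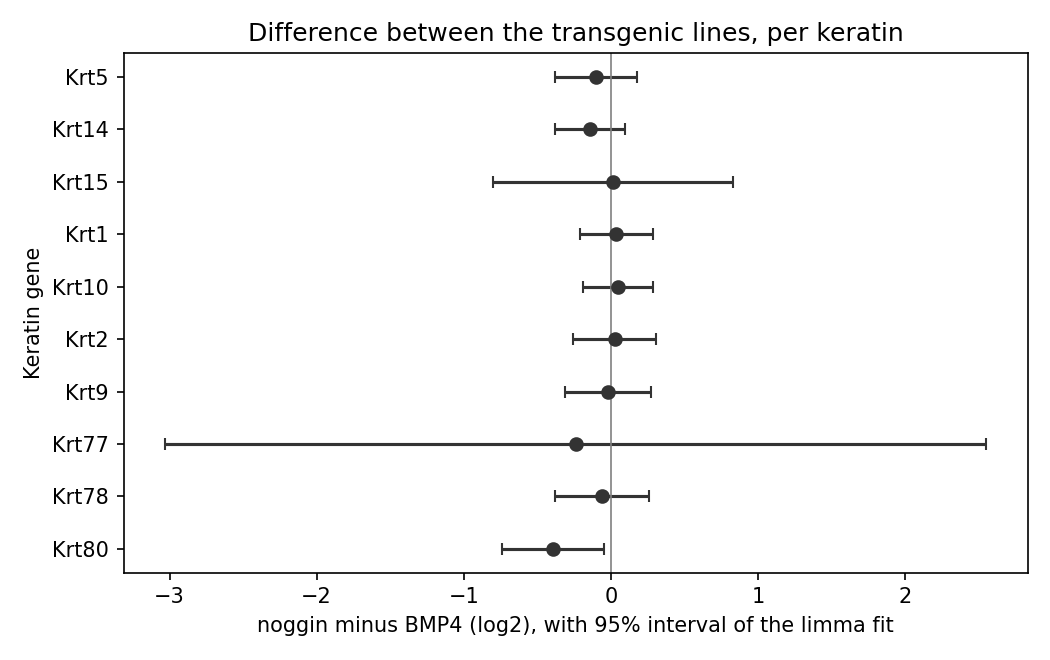
Difference of group means, noggin minus BMP4, for each keratin (horizontal axis, log2), with the 95% interval from the limma fit over all probe sets. Only the interval of Krt80 leaves out 0, before adjustment for the 35556 probe sets, and that of Krt77 runs from -3.03 to 2.55.

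Krt77 differed from the other 9 keratins in how much it varied from pool to pool. Krt77, a type II keratin known in humans from the ducts of eccrine sweat glands, had 8.65 and 7.31 in the noggin arrays, against 6.94 and 9.50 in the BMP4 arrays. The BMP4 arrays were both the lowest and the highest, and the noggin arrays lay between them. The means were 7.98 ± 0.95 in noggin and 8.22 ± 1.81 in BMP4 (SD, n = 2 each), a difference of -0.24 (95% interval -3.03 to 2.55, limma adjusted p = 0.999). Without BMP4 replicate 1 it was -1.52 and without BMP4 replicate 2 it was 1.04. The range of 2.56 log2 units is 5.89-fold, and 99.8% of all genes had a smaller range. The other 9 keratins ranged over 0.084 to 0.76 log2 units, and the median range of all genes was 0.26.

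The genes with profiles nearest to Krt77 were picked by their likeness to it, so that they are high on the same pools follows from the choice. Likeness was measured as the Euclidean distance between the mean-centred log2 values over the 4 arrays, and the profile of Krt77 itself has a length of 2.06. The 5 nearest of the genes outside the list were Gsdmc2 at a distance of 0.47, Adipoq at 0.72, Myl9 at 0.84, Pyy at 0.92 and Casq1 at 1.12. Gsdmc2 is a gasdermin, Adipoq encodes the fat cell hormone adiponectin, Myl9 a myosin light chain of smooth muscle, Pyy a gut hormone and Casq1 a calcium-binding protein of skeletal muscle. Pyy had 8.99 and 7.98 in the noggin arrays, against 7.17 and 10.91 in the BMP4 arrays, the order of Krt77 on all 4. In 3 of 19938 genes, or 0.015%, namely Krt77, Myl9 and Pyy, both high pools lay over 1 log2 unit above both other arrays. No gene had the opposite pattern, with noggin replicate 2 and BMP4 replicate 1 high by that much. The pattern was taken from Krt77 itself, so these counts carry no test.

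Markers of cells outside the keratinocyte layers were compared with Krt77 pool by pool. Relative to the mean of each gene, the median of 3 sweat gland and duct markers other than Krt77 was 0.26 and -0.14 in the noggin arrays, against -0.09 and 0.07 in the BMP4 arrays. These 3 were Aqp5, a water channel of the secretory coil, and the simple-epithelial keratins Krt7 and Krt19, and each ranged over 0.40 to 0.51 log2 units, less than Krt77. Krt7 was lower in both noggin arrays, at 7.27 and 7.07, against 7.54 and 7.42 in the BMP4 arrays, so it did not follow Krt77. Nor did Aqp5, at 8.63 and 8.34 in noggin and 8.27 and 8.22 in BMP4, lowest where Krt77 was highest. Of the 3 only Krt19 was higher on the same pools, at 6.11 and 5.68 in noggin and 5.60 and 5.90 in BMP4. The 5 skeletal muscle markers had medians of 0.93 and -0.12 in the noggin arrays, against -1.08 and 0.25 in the BMP4 arrays. Their summed intensity was 12.24 and 11.27 in noggin and 10.26 and 11.57 in BMP4 on the log2 scale, highest in noggin replicate 1 and next in BMP4 replicate 2.

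Further lists were chosen after the profile of Krt77 was seen, and they are given only as values. The 5 smooth muscle and myoepithelial markers had medians of 0.47 and -0.29 in the noggin arrays, against -0.46 and 0.15 in the BMP4 arrays. For the 4 adipocyte markers measured, the medians were 0.16 and -0.18 in noggin and -0.30 and 0.35 in BMP4. One of the 4 is Adipoq, already picked for its likeness to Krt77. Of the others, Cidec and Fabp4 were higher on the same pools. Plin1 was not, at 6.42 and 6.42 in noggin and 6.37 and 6.41 in BMP4. The median of each of the 4 lists was higher on the same pools as Krt77, by smaller amounts on BMP4 replicate 2. That holds for the medians and not for every gene, as Krt7, Aqp5 and Plin1 did not follow Krt77. The median of the 5 dermal fibroblast markers was also higher on those pools, at -0.01 and -0.03 in noggin and -0.18 and 0.20 in BMP4. Medians of the Langerhans cell, T cell, Merkel cell, hair follicle, endothelium and melanocyte markers did not follow Krt77. The part of any of these cell types in the Krt77 signal was not tested.

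**Figure D4:**
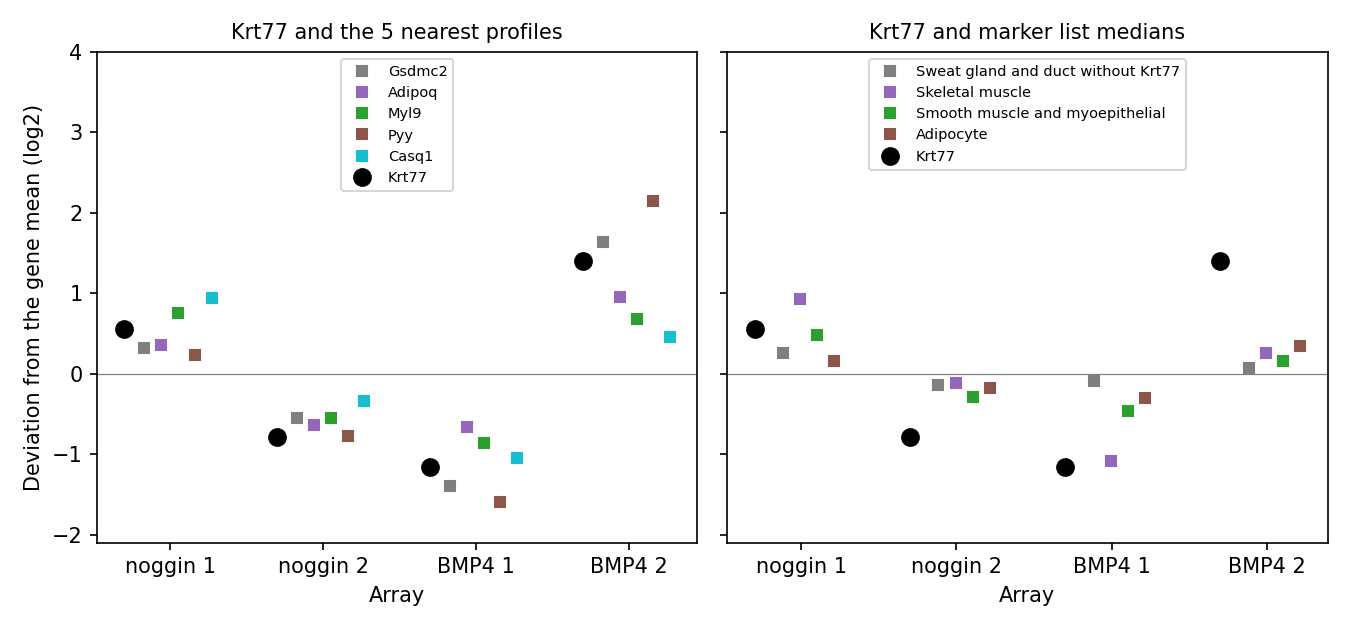
Deviation from the gene mean (log2) on each array, for Krt77 and the 5 genes with the nearest profiles (left) and for Krt77 and the medians of 4 marker lists (right). All are higher on noggin 1 and BMP4 2 than on noggin 2 and BMP4 1, and the marker lists move less than Krt77 on BMP4 2.

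Upstream sequences are shown for Krt10, Krt2 and Krt9, 3 suprabasal keratins with a small range over the arrays, and for Krt77, the keratin with the widest range. The RefSeq promoter table of GRCm38.p6 gives 250 bases before to 50 after a start of each gene and held 7 of the 10 symbols, while Krt1, Krt15 and Krt80 were not matched. That start lay within 1 base of the upstream end of the span given to the gene in the RefSeq gene table for Krt5, Krt9 and Krt77. It lay inside the span by 787 bases for Krt2, 1480 for Krt14, 8085 for Krt10 and 42337 for Krt78, so for these 4 another start upstream was not searched. All 4 lie on the minus strand and are written 5′ to 3′ along the gene, at chr11:99389315-99389614 for Krt10, chr15:101818120-101818419 for Krt2, chr11:100193197-100193496 for Krt9 and chr15:101869656-101869955 for Krt77. Capitals mark matches to TATAA, to its relative TATATA or to the AP-2 motif GCCNNNGGC.
Krt10: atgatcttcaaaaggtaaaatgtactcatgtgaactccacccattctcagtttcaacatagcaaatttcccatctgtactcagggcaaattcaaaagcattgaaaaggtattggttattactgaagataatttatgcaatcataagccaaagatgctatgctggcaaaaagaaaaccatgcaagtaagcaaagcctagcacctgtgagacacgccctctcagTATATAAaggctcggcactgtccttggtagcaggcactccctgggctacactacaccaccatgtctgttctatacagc
Krt2: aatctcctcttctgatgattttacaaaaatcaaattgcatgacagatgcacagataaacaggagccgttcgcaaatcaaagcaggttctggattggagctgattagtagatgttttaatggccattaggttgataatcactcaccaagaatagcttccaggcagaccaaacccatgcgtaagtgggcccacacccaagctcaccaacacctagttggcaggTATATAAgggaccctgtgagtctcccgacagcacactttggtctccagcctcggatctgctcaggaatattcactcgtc
Krt9: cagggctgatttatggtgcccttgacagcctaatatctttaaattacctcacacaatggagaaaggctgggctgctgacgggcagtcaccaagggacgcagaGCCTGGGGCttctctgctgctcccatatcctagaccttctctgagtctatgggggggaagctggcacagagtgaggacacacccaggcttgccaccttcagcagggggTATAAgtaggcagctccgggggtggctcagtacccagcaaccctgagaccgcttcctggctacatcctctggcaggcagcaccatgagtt
Krt77: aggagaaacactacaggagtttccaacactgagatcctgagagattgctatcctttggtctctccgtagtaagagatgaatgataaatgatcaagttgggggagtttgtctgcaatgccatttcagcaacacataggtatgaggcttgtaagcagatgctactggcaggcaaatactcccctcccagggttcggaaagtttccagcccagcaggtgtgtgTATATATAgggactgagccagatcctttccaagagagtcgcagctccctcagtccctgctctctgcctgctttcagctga
Krt10 and Krt2 carry the same TATATAA, in which both searched TATA motifs overlap, starting 28 and 29 bases before the start. Krt77 holds TATATATA from 30 bases before the start, and Krt9 holds TATAA from 40 bases before it. Searched on both strands, TATAA was present in 24.9% and TATATA in 5.67% of 32851 windows of this length. On the gene strand between 40 and 16 bases before the start, the shares were 3.52% and 0.944%. The AP-2 motif was matched in 16.6% of windows and, of the 7, in Krt9 alone. The AP-1 motif TGANTCA and the SMAD motif GGCGCC, present in 7.81% and 11.9% of windows, were matched in none of the 7. The 4 printed windows hold a TATA match, and those of Krt5, Krt14 and Krt78 hold neither TATA motif. The Krt10, Krt2, Krt14 and Krt78 windows lie wholly inside the gene spans, so they do not describe sequence at the upstream ends of those spans. Whether the K14 promoter of the transgenes holds any of these motifs was not searched. A match is a description of letters, not a site.

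Genes of the basal and suprabasal programmes other than keratins were set beside the 10, and none passed the test. Of 14 basal keratinocyte genes 13 were measured, 5 higher and 8 lower in noggin. The median difference was -0.11. In 5 of the 13 the noggin values were both under the BMP4 values, against 17.9% of all genes. The 3 with the smallest p were Dsg3, the desmoglein of lower layers, at -0.36, the hemidesmosome integrin Itgb4 at -0.18 and the hemidesmosome collagen Col17a1 at -0.15 (limma adjusted p from 0.913 to 0.939). Itga6, the partner of Itgb4, had 10.28 and 10.59 in the noggin arrays, against 10.24 and 10.27 in the BMP4 arrays, and so lay on the other side. Trp63, the master transcription factor of stratified epithelia, differed by -0.10, close to Krt5.

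Of 20 suprabasal differentiation genes 17 were measured, 13 higher and 4 lower in noggin, with a median difference of 0.05. The noggin values were both over the BMP4 values in 8 of the 17 and both under them in 2, against 15.7% and 17.9% of all genes. The 3 with the smallest p were Notch3, a Notch receptor, at -0.25, Krtdap, a secreted protein of differentiating keratinocytes, at 0.19, and Flg2, a filaggrin relative, at 0.98 (limma adjusted p from 0.903 to 0.936). Flg2 had 9.69 and 10.53 in the noggin arrays, against 8.50 and 9.76 in the BMP4 arrays, and its groups overlapped. The median of the list was 0.04 without BMP4 replicate 1 and that of the basal list was -0.06. Among the 4269 genes at least as bright as the dimmest of the 10 keratins the median difference was 0.02. That lies close to the 0.05 of the suprabasal list, while the basal list was at -0.11. Of these 4269 genes, 865 had both noggin values over the BMP4 values and 610 had both under them. Neither list was tested against that background.

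Proteins that bind keratin filaments or anchor them at junctions showed no common direction. Of 12 such genes 11 were measured, 5 higher and 6 lower in noggin, with a median difference of -0.03, or -0.10 without BMP4 replicate 1. Tchp, which encodes the keratin-binding protein trichoplein, was at -0.25, the envelope plakin Evpl at 0.12 and the linker Plec at -0.11 (limma adjusted p from 0.939 to 0.965). Dsp, the desmosomal anchor of keratin filaments, had 12.92 and 12.89 in the noggin arrays, against 12.94 and 12.95 in the BMP4 arrays, a difference of -0.03.

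Among keratins of other epithelia and of stressed skin none passed the test, and 4 of the 16 measured, Krt6a, Krt6b, Krt16 and Krt23, differed by more than any of the 10. In 12 of the 16 the noggin mean was lower, and the median difference was -0.12, or -0.09 without BMP4 replicate 1. In 6 of the 16 the noggin values were both under the BMP4 values, against 17.9% of all genes. Krt6a, made in wounded and pressure-bearing skin, had 8.65 and 8.99 in the noggin arrays, against 11.05 and 10.23 in the BMP4 arrays, a difference of -1.82 (limma adjusted p = 0.732), or -1.41 without BMP4 replicate 1. Krt16, its usual partner, differed by -0.56, and Krt7 by -0.31 (limma adjusted p = 0.874 for each), and without BMP4 replicate 1 by -0.36 and -0.25. The median absolute difference was 0.17 in these 16, 0.054 in the 10 keratins and 0.087 in all genes, and 4 of the 16 lay below the median of the 10. The 16 also hold Krt24, bright at 13.24 and 13.22 in noggin and 13.45 and 13.36 in BMP4. Krt4, Krt20 and Krt76, at 4.33 to 4.69, lay under the lower quartile of every array, and Krt4 and Krt76 are among those 4. No test was made of the difference between the lists.

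**Figure D5:**
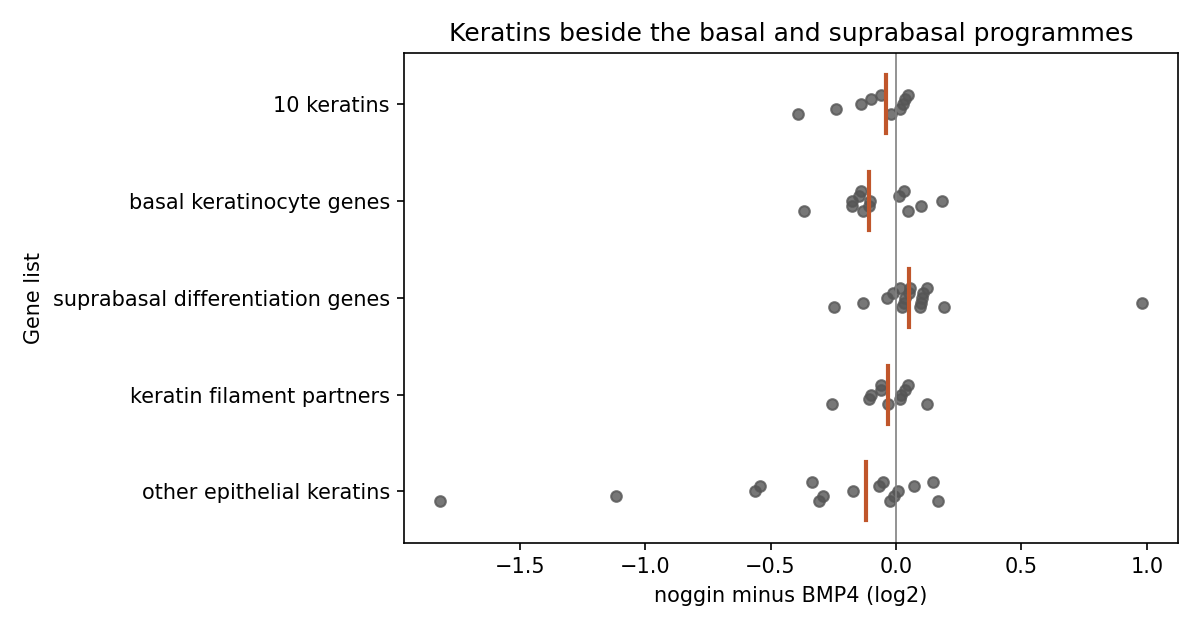
Difference noggin minus BMP4 (horizontal axis, log2) of each measured gene, for the 10 keratins, the 3 lists of basal, suprabasal and filament-partner genes, and other epithelial keratins; bars mark the medians. The medians lie between -0.12 and 0.05, and the points farthest from 0 are Krt6a at -1.82, Krt6b at -1.12 and Flg2 at 0.98.

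Markers of other cell types were measured in the same strips. For the 5 Langerhans cell markers every mean was higher in noggin, by 0.68 at the median, and their summed intensity was 11.18 and 11.23 in the noggin arrays, against 9.89 and 10.85 in the BMP4 arrays. Leaving out BMP4 replicate 1, the lowest array, gave a median of 0.36, and leaving out BMP4 replicate 2 gave 1.15. The 4 measured T cell markers were all higher in noggin, and their median was 0.21, with 0.22 when BMP4 replicate 1 and 0.34 when BMP4 replicate 2 was left out. All 5 hair follicle markers were lower in noggin, with a median of -0.78 and a summed intensity of 8.34 and 8.16 in the noggin arrays, against 11.83 and 9.81 in the BMP4 arrays. Leaving out BMP4 replicate 1 gave a median of -0.42, and leaving out BMP4 replicate 2 gave -1.13. Krt84, a hair and nail keratin, had 5.47 and 5.71 in the noggin arrays, against 11.60 and 9.09 in the BMP4 arrays. Krt84 made up most of the summed intensity of the BMP4 arrays. The median of the list is the value of Msx2, at -0.78, while Krt25 differed by -1.74, Krt71 by -0.11 and Krt35 by -0.03. The 4 Merkel cell markers had a median difference of -0.04, the 5 dermal fibroblast markers -0.03, the 3 endothelium markers 0.16 and the 4 melanocyte markers 0.19. Without BMP4 replicate 1 these medians were -0.04, -0.21, 0.08 and 0.16. No marker is at 0 on this scale, and detection above background is unknown. The part of these cells in the keratin values was not tested.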

How the data were processed

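Laser-captured epidermis of 4 RNA pools was amplified by the NuGEN pico protocol and labelled with biotin, per the labels. The deposited table holds log2 intensities per probe set, made by the authors with Affymetrix Expression Console and RMA, per the submitters' processing notes, with no version or settings given. RMA corrects background, quantile-normalizes arrays and summarizes probes, which removes differences in overall signal and compresses changes of dim probe sets. Whether changes of very bright probe sets were compressed was not tested. Scanner files were not used here, and the number of arrays limits the precision. Replicates are pools of different animals, so p-values measure the spread between pools. The limma fit draws the spread of each probe set toward that of all probe sets.

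Of 35556 probe sets, 21789 had 1 symbol, and each gene was represented by its brightest probe set. The contrast noggin minus BMP4 came from a two-sided limma model (version 3.58.1, R 4.3.3) with no term but group, which left 2 residual and 2.08 prior degrees of freedom. Its p-values were adjusted by Benjamini-Hochberg over every probe set, and 0.05 was the threshold. The code was tested on simulated data. Errors are SDs of 2 arrays. All 10 keratins were named, with 3 genes of smallest p per list and the 5 profiles nearest to the widest-ranging keratin. Other genes named were chosen after their values were seen. The members and lists were chosen with earlier results of these data known. Same-numbered arrays were not paired: their deviations correlated at -0.12, and no label ties the numbers.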

Additional observations from a re-analysis of the deposited data

How the results depend on the processing

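Differences of 4 keratins, Krt5, Krt14, Krt10 and Krt80, kept their sign under the 7 alternatives that can move a difference: median centring, quantile normalization, cyclic loess and each array left out. The other 5 of 12, an intensity trend, a robust prior, the replicate number as a block, dim probe sets left out and averaged probe sets per gene, leave the differences of these keratins as they are. The cause of the other changes was not tested. Krt15 turned to -0.013 under quantile normalization and -0.0035 under cyclic loess, and Krt2 to -0.00013 under cyclic loess. Leaving out 1 array gave -0.37 to 0.39 for Krt15, -0.011 to 0.082 for Krt1, -0.053 to 0.105 for Krt2, -0.101 to 0.061 for Krt9, -1.52 to 1.04 for Krt77 and -0.166 to 0.049 for Krt78. It gave medians of -0.106 to 0.036 for the 10 keratins, -0.122 to -0.045 for basal genes, 0.037 to 0.099 for suprabasal genes and -0.10 to 0.012 for filament partners. With dim probe sets left out, the median of other epithelial keratins was -0.31 over 11 genes. The count of probe sets past an adjusted p of 0.05 was 0 in every alternative (limma), and 1994 at an unadjusted p below 0.05. With the replicate block it was 0, with a smallest adjusted p of 0.948, against 0.451 without it, and the block changed no call. The 2 pools per line limit what could be detected.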
